A study of Mus musculus with 10 samples.

Results

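The protocadherins, cell-surface adhesion molecules of the cadherin superfamily, were examined in RNA-seq of the first pharyngeal arch (PA1). Members were all rows of the gene count table whose name begins with Pcdh followed by a digit or by a, b or g, and this rule used no measured value. It gave 70 of the 22114 genes in the table: 15 Pcdha, 22 Pcdhb and 21 Pcdhg genes of the 3 gene clusters, and 12 dispersed protocadherins that lie outside the clusters. The 10 libraries are from the PA1 of 1 embryo each, all males at E10.5 labelled as C57BL/6 (the allele was back-crossed to C57BL/6J), of which 5 were wild-type and 5 Grhl2-/-. The Grhl2-/- embryos lack both functional copies of Grhl2, the gene for a transcription factor of epithelial cells, in all their tissues, and were bred by crossing heterozygotes. The arch was taken whole, so each library mixes mesenchyme, epithelium, vessels, blood and any nerve or ganglion tissue, and fewer cells of a type and less RNA per cell cannot be told apart. Embryos are named here by genotype and a number from 1 to 5, which has no order.

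Protocadherins carry cadherin repeats outside the cell and bind the same protein on a neighbouring cell. In the mouse the α, β and γ clusters lie side by side on chromosome 18. Each α or γ gene has its own large first exon with its own promoter, spliced to a few constant exons that all members of that cluster share, whereas each β gene is a single exon. Neurons choose a few promoters per cell through CTCF, cohesin and DNA methylation, which gives each neuron a surface identity used in self-avoidance. The C-type members (Pcdhac1, Pcdhac2, Pcdhgc3, Pcdhgc4 and Pcdhgc5) are mostly expressed without such a choice. The dispersed members form the δ1 group (Pcdh1, Pcdh7, Pcdh9, Pcdh11x), the δ2 group (Pcdh8, Pcdh10, Pcdh17, Pcdh18, Pcdh19), whose cytoplasmic tails can bind the WAVE complex that drives actin assembly, and others with more particular roles. Many δ protocadherins act in cell sorting and migration in embryonic tissue outside the nervous system.

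Counts on all genes ranged from 22188454 to 28801378 per arch, and 3 reads, the level taken here as the floor, were 0.104 to 0.136 CPM (counts scaled to library size after TMM normalization). Such floors cover counting error only. Grhl2 itself was covered by 81 to 178 reads per Grhl2-/- arch, where wild type had 794 to 1163 (log2 fold change -3.02, limma-voom FDR 2.67e-06, where FDR is the Benjamini-Hochberg adjusted p over all genes tested). Epithelial markers moved with genotype: 7 of 10 fell, and their summed level was 364 to 482 CPM in wild type against 193 to 275 CPM in Grhl2-/-. Neural tube progenitor markers moved the other way, with summed levels of 173 to 224 CPM in wild type against 256 to 357 CPM in Grhl2-/-, and 1 of 10, Nes, rose at FDR below 0.01. Neuronal markers split the wild-type arches. A neuron score, the mean log2 CPM of 13 pan-neuronal and 13 cranial sensory neuron genes, was -0.51 and -1.02 in wild-type arches 1 and 2 and 3.39, 4.09 and 3.56 in the other wild-type arches. In the Grhl2-/- arches it lay between 2.87 and 4.63. Both low arches are wild type, so results that rest on them are given with and without them.

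Of the 70 protocadherins, 54 reached 10 reads in at least 1 arch and were tested among 14561 genes: 3 of 15 Pcdha, 18 of 22 Pcdhb, all 21 Pcdhg and all 12 dispersed members. At FDR below 0.01 in limma-voom, 1 protocadherin fell in Grhl2-/- PA1, Pcdh19, where 1.09% of all genes tested fell. No protocadherin rose at that threshold, where 0.879% of all genes did. The count of higher members was 0 in edgeR's quasi-likelihood test and 3 in DESeq2 (Pcdh7, Pcdh9 and Pcdhga2), which called 3.57% of all genes higher. At FDR below 0.05, 4 of 54 were higher (Pcdh7, Pcdh9, Pcdhga2 and Pcdhga3) and Pcdh19 remained the single lower one, against 3.84% of all genes higher and 3.87% lower. At an unadjusted p below 0.05, 14 of 54 were higher and 3 lower, against 14.2% and 14.3% of all genes. In 7 protocadherins every Grhl2-/- arch was above every wild-type arch, and in 1 every Grhl2-/- arch was below. Over all genes tested, 4.22% and 4.66% were separated in these directions. The log2 fold change was positive for 43 of 54 members (79.6%) and for 52.7% of all genes, and its median was 0.22 over the members and 0.01 over all genes. With no filter on reads, 54 of 68 members were positive. The excess of positive values lay in the clusters: 37 of 42 clustered members were positive, with a median of 0.24, and 6 of 12 dispersed members, with a median of 0.05. Clustered genes share a locus, so they are not independent of each other. P-values measure the spread between these embryos.

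**Figure D1:**
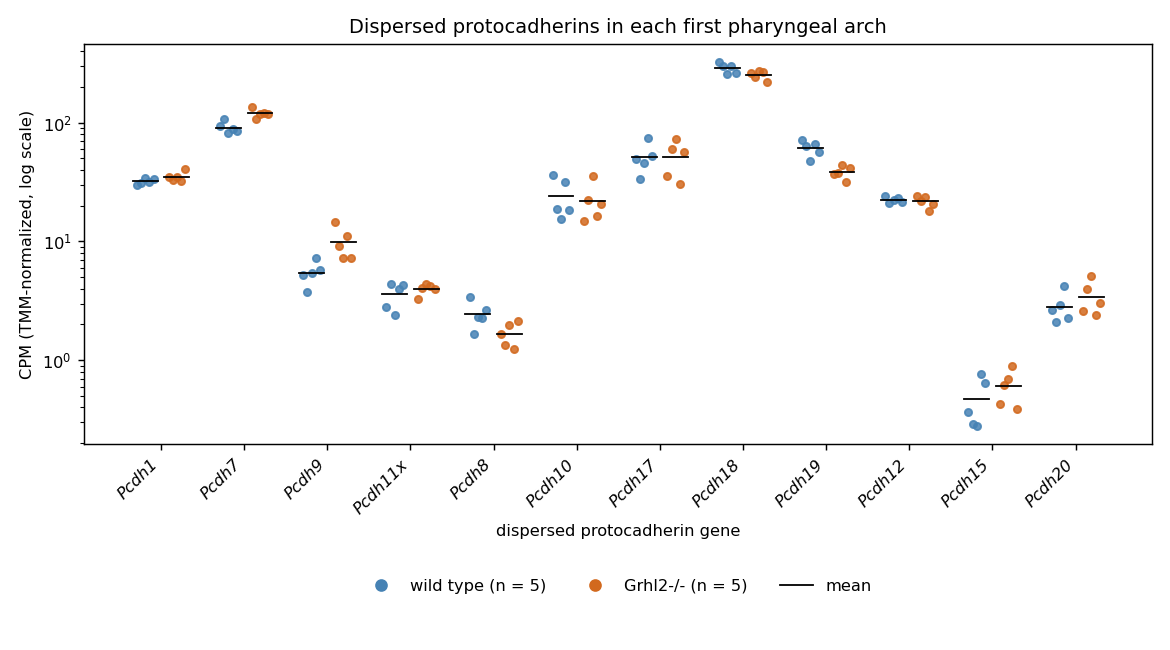
Level of the 12 dispersed protocadherins in each arch, in TMM-normalised CPM on a log axis, for 5 wild-type (blue) and 5 Grhl2-/- (orange) arches, with black bars at the group means. Pcdh18 was the most abundant at 219 to 323 CPM, the Pcdh19 groups did not overlap, and Pcdh10 and Pcdh17 spread as widely within each genotype as between them.

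Among the δ2 members, Pcdh19 fell in the Grhl2-/- arches. Pcdh19 is a homophilic adhesion molecule that also pairs with N-cadherin, and its loss of function causes an epilepsy in heterozygous females. The wild-type arches had 71.5, 63.8, 47.2, 66.8 and 56.3 CPM, and the Grhl2-/- arches had 36.9, 37.9, 43.9, 31.6 and 41.2 CPM. The highest Grhl2-/- arch was below the lowest wild-type arch, so the groups did not overlap. The means were 61.1 ± 9.54 and 38.3 ± 4.65 CPM (SD, n = 5 each), a level 1.58-fold higher in wild type (log2 fold change -0.66, SE 0.117, limma-voom FDR 0.00753), and the reads behind these values numbered 888 to 1837 per arch. The gene lies at chrX:133582860-133688987 on the minus strand (GRCm38, GENCODE M21). Its exons overlap Gm26851 on the opposite strand, as those of Pcdh7, Pcdh10 and Pcdh8 overlap 4932441J04Rik, 1700027H10Rik and Gm9748, and although the title of the count table carries the word reverse, the sources used here do not state whether counting used strand, so such reads cannot be assigned with certainty. The call is close to the threshold. It held in 2 of 10 fits that each left out 1 arch, those without wild-type arch 3 or Grhl2-/- arch 3, and the FDR over the 10 fits ranged from 0.00135 to 0.0230 with log2 fold changes of -0.76 to -0.60. Without both arches of low neuron score the log2 fold change was -0.58 (FDR 0.0462), and with the neuron score as a covariate it was -0.61 (FDR 0.0282). Ectomesenchyme markers had summed levels of 2219 to 2935 CPM in wild type against 2032 to 2415 CPM in Grhl2-/-, and 1 of 10, Msx1, fell (4 of 10 were lower at an unadjusted p below 0.05, where 14.3% of all genes were). The part of this and of the epithelial difference in the Pcdh19 value was not tested.

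Pcdh18, which is expressed in mesenchyme and neural tissue of the embryo, was the most abundant dispersed member. The wild-type arches had 323, 299, 259, 298 and 264 CPM and the Grhl2-/- arches 263, 243, 270.1, 269 and 219 CPM. The groups overlapped, and the log2 fold change was -0.19 (95% confidence interval -0.35 to -0.03, FDR 0.121). Pcdh8, related to the paraxial protocadherin that regulates cell movement in mesoderm of frog and fish, had 3.41, 1.65, 2.30, 2.25 and 2.67 CPM in wild type against 1.68, 1.36, 1.97, 1.25 and 2.12 CPM in Grhl2-/-. Its log2 fold change was -0.52 (-0.99 to -0.05, FDR 0.142), on 35 to 75 reads per arch. Together with Pcdh19, these were the 3 of 54 members lower at an unadjusted p below 0.05, where 14.3% of all genes were. All of them belong to the δ2 group, which was not tested as a group. Its other members, Pcdh10 and Pcdh17, had log2 fold changes of -0.11 and -0.03.

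The other δ2 members varied more between embryos than between genotypes. Pcdh17, which recruits WAVE at contacts between migrating axons, had 49.6, 33.6, 46.0, 74.3 and 52.1 CPM in wild type against 35.7, 60.1, 72.3, 30.7 and 57.0 CPM in Grhl2-/-. The highest and lowest arches of both genotypes lay at about the same levels, and the log2 fold change was -0.03 (-0.58 to 0.53). Pcdh10, also a WAVE-binding axon guidance molecule, had 36.2, 18.9, 15.5, 31.6 and 18.4 CPM in wild type against 15.0, 22.2, 35.7, 16.2 and 20.5 CPM in Grhl2-/-. Wild-type arches 1 and 4 and Grhl2-/- arch 3 stood above all the others, and the log2 fold change was -0.11 (-0.71 to 0.50).

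In the δ1 group, Pcdh7 and Pcdh9 were higher in the Grhl2-/- arches but above the threshold of 0.01. Pcdh7, the counterpart of frog NF-protocadherin, which acts in ectoderm and in retinal axons, had 93.4, 107, 81.6, 88.1 and 84.7 CPM in wild type against 136, 108, 118, 121 and 119 CPM in Grhl2-/-. The groups were separated by a narrow gap, between wild-type arch 2 and Grhl2-/- arch 2. The means were 90.9 ± 9.86 and 121 ± 10.3 CPM (SD, n = 5 each), a 1.33-fold higher level (log2 fold change 0.41, SE 0.0774, FDR 0.0106). Wild-type arch 2, the highest of its group, is one of the arches of low neuron score: without it the log2 fold change was 0.47 (FDR 0.00380), without both such arches 0.49 (FDR 0.00703), and with the score as a covariate 0.52 (FDR 0.000887). Of the 10 fits that each left out 1 arch, only the one without wild-type arch 2 passed, and their FDRs ranged from 0.00380 to 0.0326. Pcdh9, a member found mainly in the nervous system, had 5.22, 3.77, 5.47, 7.20 and 5.70 CPM in wild type against 14.6, 9.18, 7.30, 11.2 and 7.30 CPM in Grhl2-/-. Here too the groups did not overlap, but the Grhl2-/- arches were spread over a wide range. The means were 5.47 ± 1.22 and 9.92 ± 3.08 CPM, a log2 fold change of 0.84 (SE 0.226, FDR 0.0454), which was 0.64 to 0.95 over the alternative settings and had an FDR of 0.138 with the neuron score as a covariate. Without both arches of low neuron score it was 0.64 (FDR 0.227). The part of the higher neural tube progenitor markers in either value was not tested.

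Pcdh1, which is found in epithelia of the airway and skin as well as in endothelium and brain, had 29.7, 31.1, 34.5, 31.5 and 33.2 CPM in wild type against 35.0, 33.0, 34.9, 32.0 and 41.0 CPM in Grhl2-/-. The groups overlapped, and where 7 of 10 epithelial markers fell its log2 fold change was 0.13 (-0.02 to 0.28, FDR 0.237). Pcdh11x, the X-linked δ1 member, had 2.40 to 4.42 CPM in wild type against 3.25 to 4.36 CPM in Grhl2-/- (log2 fold change 0.18, -0.21 to 0.56).

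Of the members outside the δ groups, Pcdh12, an adhesion molecule of endothelial junctions, had 24.0, 21.1, 22.4, 23.3 and 21.5 CPM in wild type against 24.3, 22.1, 23.5, 18.0 and 20.6 CPM in Grhl2-/-. The groups overlapped, with 2 Grhl2-/- arches below all wild-type arches, and the log2 fold change was -0.05 (-0.23 to 0.13, FDR 0.706). Summed endothelial markers were 354 to 403 CPM in wild type against 392 to 460 CPM in Grhl2-/-, and 0 of 8 were called (4 of 8 were higher at an unadjusted p below 0.05, where 14.2% of all genes were). Pcdh20, a little-studied member with nervous system expression, had 2.09 to 4.25 CPM in wild type against 2.38 to 5.12 CPM in Grhl2-/- (log2 fold change 0.25, -0.28 to 0.79). Pcdh15, the tip-link protein of inner ear hair cells, was near the floor at 0.279 to 0.890 CPM over all arches, on 8 to 25 reads.

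Compared per kilobase of exon, Pcdh18 led the dispersed members in wild type at 53.8 ± 4.97 CPM per kb, followed by Pcdh7 at 8.57 ± 0.930, Pcdh19 at 5.84 ± 0.911, Pcdh17 at 3.94 ± 1.14, Pcdh12 at 3.71 ± 0.201, Pcdh1 at 3.64 ± 0.214 and Pcdh10 at 1.52 ± 0.577 CPM per kb. Pcdh9, Pcdh8, Pcdh20, Pcdh11x and Pcdh15 were below 1 CPM per kb, in that order. The wild-type ranges of Pcdh18, Pcdh7 and Pcdh19 did not overlap each other. Neighbours from Pcdh19 to Pcdh1 overlapped in their ranges, as did those from Pcdh10 to Pcdh20, so their order is not resolved. In Grhl2-/- PA1, Pcdh7 stood at 11.4 ± 0.969 and Pcdh19 at 3.66 ± 0.444 CPM per kb, the latter beside Pcdh17 (3.94 ± 1.34) and Pcdh12 (3.58 ± 0.415).

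The promoters of Pcdh19 and Pcdh7 are shown because these genes had the smallest FDRs among the protocadherins and differed in opposite directions, and because GRHL factors and ZEB repressors act through promoter and enhancer DNA. Both are from RefSeq on GRCm38.p6, cover 250 bases before to 50 bases after the gene start, and are printed 5′ to 3′ on the gene's own strand. The Pcdh19 window is chrX:133688944-133689243 on the minus strand and the Pcdh7 window chr5:57717831-57718130 on the plus strand. Capitals mark the letters CAGGTG, the E-box that ZEB proteins can bind.
Pcdh19: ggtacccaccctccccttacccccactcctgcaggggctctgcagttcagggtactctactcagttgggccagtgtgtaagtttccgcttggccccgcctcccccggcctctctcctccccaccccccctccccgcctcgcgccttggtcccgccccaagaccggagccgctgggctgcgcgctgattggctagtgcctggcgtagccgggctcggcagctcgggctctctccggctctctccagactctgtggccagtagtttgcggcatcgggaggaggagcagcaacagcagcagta
Pcdh7: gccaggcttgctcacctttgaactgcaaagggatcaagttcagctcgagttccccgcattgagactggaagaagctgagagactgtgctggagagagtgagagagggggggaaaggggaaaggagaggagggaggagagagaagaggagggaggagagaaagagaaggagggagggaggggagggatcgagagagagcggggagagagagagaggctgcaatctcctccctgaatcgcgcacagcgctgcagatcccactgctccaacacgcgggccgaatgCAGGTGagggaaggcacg
Both strands were searched for AACCGGTT and the looser AACNGGTT, forms of the GRHL motif of which the first is contained in the second, and for CAGGTG. Of 32851 promoter windows of this length, 0.146% hold AACCGGTT, 2.09% hold AACNGGTT and 20.2% hold CAGGTG. The 10 windows matched to 9 dispersed members hold neither GRHL form, and CAGGTG is in those of Pcdh7, where it starts at base 283 of the window, and Pcdh15. A match is a string of letters and not a known site, and distant elements were not searched.

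The Pcdha cluster was barely detected. Between 42 and 126 reads per arch fell on all 15 rows together, and 12 of the rows had fewer than 10 reads in every arch. The summed level was 2.20 ± 0.600 CPM in wild type against 3.01 ± 0.849 CPM in Grhl2-/- (SD, n = 5 each), and the ranges, 1.46 to 3.03 and 2.38 to 4.36 CPM, overlapped. Pcdhac2, a C-type member, held most of it, between 50.7% of the reads on the cluster in wild-type arch 5 and 93.9% in wild-type arch 1. Its levels were 2.09, 1.51, 0.941, 1.45 and 1.53 CPM in wild type against 1.85, 1.98, 2.70, 1.60 and 1.39 CPM in Grhl2-/- (log2 fold change 0.37, -0.13 to 0.88, FDR 0.304). Pcdha11 and Pcdha12, the alternate members that passed the filter, had at most 13 and 11 reads in an arch, and Pcdhac1, at 0 to 0.154 CPM, was not tested. Only 2 rows had 0 reads in every arch. They are Pcdha4 and a second row under that name, a readthrough transcript called Gm42416 in GENCODE that has no exon sequence of its own. Reads on exons shared between genes appear not to have been counted for any of them, so this 0 is no measure of Pcdha4, and the values of α and γ members rest on their own exons.

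**Figure D2:**
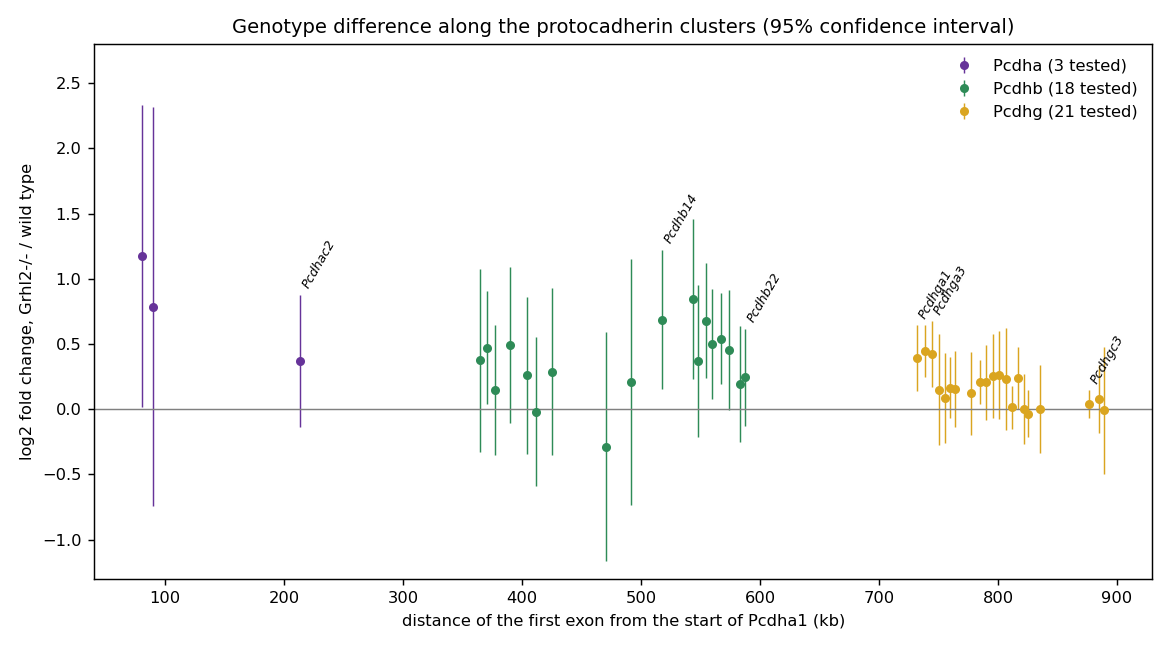
Log2 fold change (Grhl2-/- over wild type, limma-voom) of the 42 tested members of the Pcdha, Pcdhb and Pcdhg clusters, by distance of each gene's start from that of Pcdha1 in kb, with 95% confidence intervals and a grey line at 0. Values from Pcdhb14 to Pcdhga3 are all positive, with medians of 0.50 (Pcdhb14 to Pcdhb22) and 0.42 (Pcdhga1 to Pcdhga3), and those at the Pcdhgc3 end lie near 0.

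The Pcdhb cluster was low but measurable, and none of its members passed FDR 0.01. The summed level of its 22 genes was 15.9, 17.0, 17.4, 17.1 and 19.1 CPM in wild type against 22.7, 20.7, 31.2, 21.1 and 18.9 CPM in Grhl2-/-. Grhl2-/- arch 3 was far above the others, and Grhl2-/- arch 5 lay just below the highest wild-type arch, so the groups overlapped by 1 arch. The means were 17.3 ± 1.14 and 22.9 ± 4.81 CPM (SD, n = 5 each), a ratio of 1.31. Of the 18 members tested, 16 had a positive log2 fold change, with a median of 0.37, 4 were separated from wild type, 6 were higher at an unadjusted p below 0.05 and 0 passed FDR 0.01 in limma-voom, edgeR or DESeq2. Over all genes tested, 52.7% were positive, 4.22% separated and 14.2% higher at that unadjusted p. The median was 0.26 without Grhl2-/- arch 3, the lowest of the 10 fits that left out 1 arch, and 0.30 with the neuron score as a covariate, with 15 and 16 of 18 members positive. Pcdhb11, 1 of the positive members, passed the filter only through Grhl2-/- arches, with at most 7 reads in wild type and 13 in Grhl2-/-. With no filter, 19 of 22 members were positive.

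Pcdhb17 and Pcdhb19 had the smallest p-values of the cluster. Pcdhb17 had 1.27, 1.44, 2.13, 1.24 and 2.10 CPM in wild type against 2.71, 2.21, 3.46, 2.21 and 2.39 CPM in Grhl2-/-, without overlap (log2 fold change 0.68, SE 0.201, FDR 0.0599). Pcdhb19 had 1.82, 2.23, 2.06, 2.51 and 2.54 CPM in wild type against 3.28, 2.63, 4.40, 3.13 and 2.93 CPM in Grhl2-/-, again without overlap (log2 fold change 0.54, SE 0.161, FDR 0.0602). Without both arches of low neuron score these were 0.53 (FDR 0.281) and 0.45 (FDR 0.257). Pcdhb22, the most abundant member, overlapped between genotypes at 2.59 to 3.76 and 2.78 to 4.78 CPM (log2 fold change 0.24, -0.13 to 0.61). Pcdhb14 and Pcdhb15, named after their values were seen as the other separated members, had at most 15 and 10 reads in a wild-type arch and log2 fold changes of 0.69 (FDR 0.0984) and 0.84 (FDR 0.0845). Grhl2-/- arch 3 had the highest level of each of these members.

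Levels were unevenly placed along the cluster. From Pcdhb1 to Pcdhb13 the wild-type level was at most 0.259 CPM per kb, in Pcdhb7. It was 0.0583 in Pcdhb14 and 0.0929 in Pcdhb15, and from Pcdhb16 to Pcdhb22 it was 0.183 to 0.483 CPM per kb. In a division chosen after the values were seen, and therefore without a test, the 9 tested members from Pcdhb14 to Pcdhb22 had positive log2 fold changes throughout (0.19 to 0.84, median 0.50), and 4 of them were separated. The 9 tested members from Pcdhb1 to Pcdhb13 had 7 positive values and a median of 0.26, with none separated. Their range, -0.29 to 0.49, overlapped that of the other stretch. The genes Slc25a2 and Taf7, which lie between the β and γ clusters on the opposite strand, had log2 fold changes of -0.10 (-0.79 to 0.59) and -0.09 (-0.25 to 0.06).

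**Figure D3:**
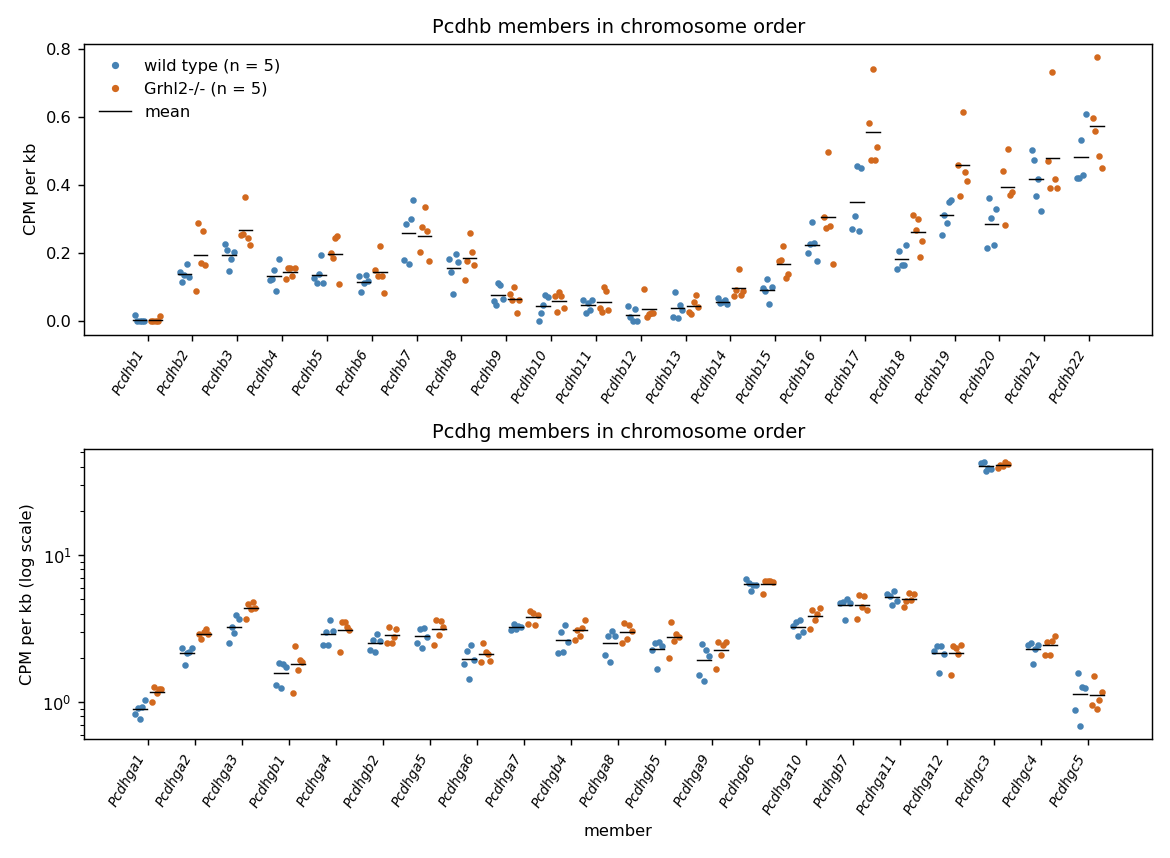
Level of the Pcdhb (linear axis) and Pcdhg (log axis) members in chromosome order, in CPM per kb of exon not shared with other genes of the strand, for 5 wild-type (blue) and 5 Grhl2-/- (orange) arches, with black bars at the means. Pcdhgc3 stood near 40.0 CPM per kb in wild type, above all other clustered members, and Pcdhb22 had the highest mean of the Pcdhb members in both genotypes.

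The Pcdhg cluster carried most of the clustered reads. Its summed level was 297, 320.4, 259.8, 311 and 296 CPM in wild type against 279.7, 338, 313, 332 and 330.5 CPM in Grhl2-/-. The groups overlapped, with means of 297 ± 23.1 and 319 ± 23.6 CPM (SD, n = 5 each). All 21 members had reads in every arch. Per kilobase, 20 of the members lay between 0.896 (Pcdhga1) and 6.31 CPM per kb (Pcdhgb6) in wild type and Pcdhgc3 stood at 40.0 ± 2.57 CPM per kb.

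Pcdhgc3, the C-type γ member known to be used in many tissues and in glia, had 143, 146, 126, 131 and 130.3 CPM in wild type against 131, 139, 137, 145 and 141 CPM in Grhl2-/-. The groups overlapped, and the log2 fold change of 0.04 was bounded by -0.07 and 0.14 (FDR 0.635), the narrowest interval of any protocadherin. This single member was 41.1% to 48.5% of the reads on the cluster. Its exons overlap BC037039 on the opposite strand, as those of Pcdhga1 overlap Gm37118, those of Pcdhga11 overlap Gm26672 and those of Pcdha11 and Pcdha12 overlap Gm10545, and the uncertainty about strand given above for Pcdh19 holds for these members too. The other C-type members also overlapped between genotypes. Pcdhgc4, the γ member that neurons need to survive, had 6.34 to 8.77 CPM in wild type against 7.27 to 9.85 CPM in Grhl2-/- (log2 fold change 0.08, -0.18 to 0.34), and Pcdhgc5, a late neuronal member, had 3.17 to 7.30 and 4.12 to 6.93 CPM (log2 fold change -0.01, -0.49 to 0.47). The deposited table lists Pcdhgc4 under the name Pcdhga8, and its identifier was used to tell it from Pcdhga8.

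At the other end of the γ cluster, Pcdhga2 and Pcdhga3 had the smallest p-values of that cluster, and neither passed FDR 0.01. Pcdhga2 had 6.00, 4.60, 5.58, 5.67 and 5.98 CPM in wild type against 7.46, 6.90, 7.68, 8.04 and 7.49 CPM in Grhl2-/-, without overlap. Its means were 5.56 ± 0.569 and 7.51 ± 0.416 CPM (SD, n = 5 each), a 1.36-fold higher level (log2 fold change 0.44, SE 0.0906, FDR 0.0160). Pcdhga3 had 6.59, 8.48, 7.70, 10.1 and 9.53 CPM in wild type against 9.63, 12.2, 11.2, 12.4 and 11.4 CPM in Grhl2-/-, with the lowest Grhl2-/- arch inside the wild-type range (log2 fold change 0.42, SE 0.115, FDR 0.0470). Without both arches of low neuron score the log2 fold changes were 0.38 (FDR 0.105) for Pcdhga2 and 0.31 (FDR 0.226) for Pcdhga3, and with the score as a covariate they were 0.40 (FDR 0.0843) and 0.31 (FDR 0.191). With their neighbour Pcdhga1, named after its values were seen (log2 fold change 0.39, FDR 0.0589), these first members of the cluster had a median log2 fold change of 0.42, and the remaining 18 members one of 0.14, with 15 positive. Pcdhgb6 and Pcdhga11, the most abundant members after Pcdhgc3, had log2 fold changes of 0.02 (-0.15 to 0.18) and -0.04 (-0.22 to 0.15).

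**Figure D4:**
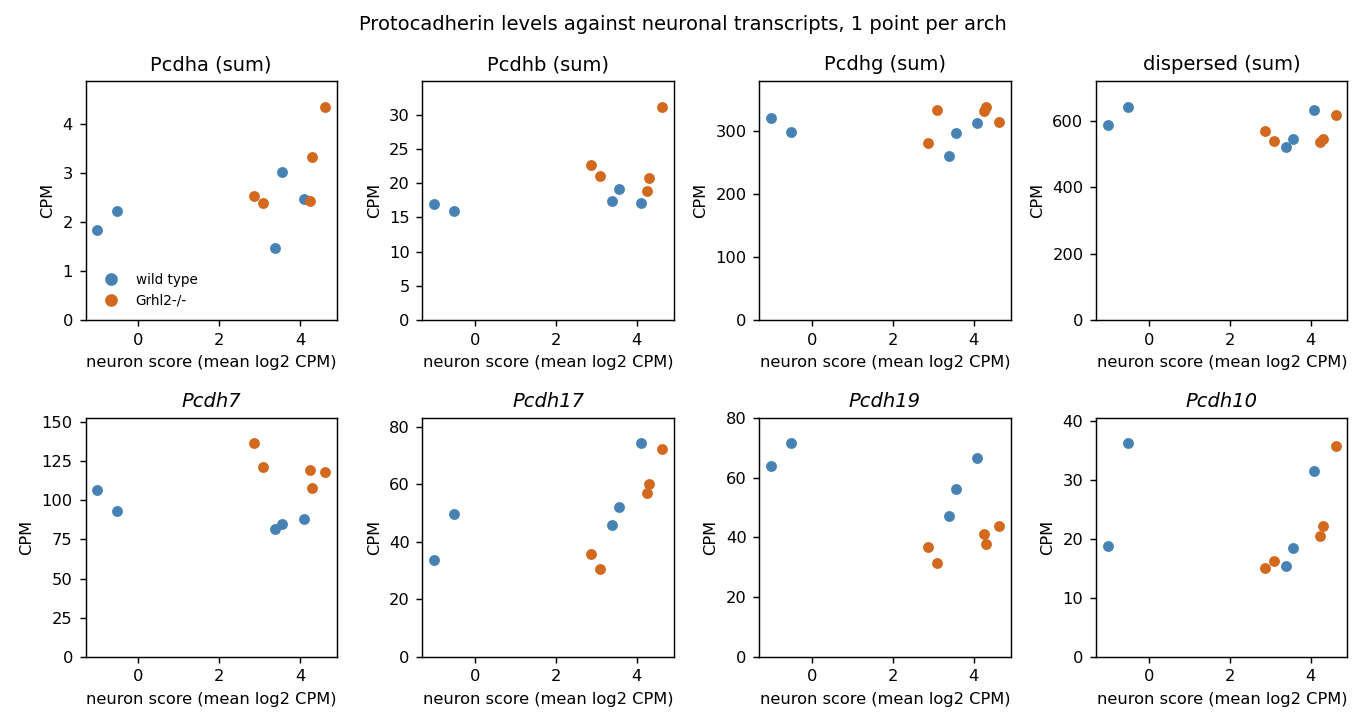
Summed CPM of each protocadherin family (top) and CPM of Pcdh7, Pcdh17, Pcdh19 and Pcdh10 (bottom) against the neuron score, the mean log2 CPM of 26 neuronal genes, with 1 point per wild-type (blue) or Grhl2-/- (orange) arch. The wild-type arches at -0.51 and -1.02 have 297 and 320.4 CPM of Pcdhg, near the other wild-type arches, and the arch of highest score in each genotype has the highest Pcdh17 level (74.3 and 72.3 CPM).

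Because protocadherins are best known in neurons, each member was set against the neuron score of its arch. The score compared arches within genotype, in a limma-voom fit with genotype as a further term. No protocadherin of 54 was called with the score at FDR below 0.01, and none in edgeR either, whereas 2.46% of all genes tested were called in limma-voom, all with a positive slope. At an unadjusted p below 0.05, 5 of 54 members were reached, against 9.12% of all genes: Pcdh17, Pcdh20 and Pcdha12 with a positive slope and Pcdh7 and Pcdhgc3 with a negative one. Without wild-type arch 2 alone, 2 of 54 were reached, against 7.82% of all genes, and of the 5 above only Pcdha12 was among them. Without both low arches, an alternative chosen after seeing the data, 9 of 54 were reached (8 with a positive slope), against 17.4% of all genes, and of the 5 above Pcdh17 and Pcdh20 were among them. Wild-type arches 1 and 2, in which the summed pan-neuronal markers were as low as 85.9 CPM where other arches reached 1364 CPM, still had 297 and 320.4 CPM of Pcdhg, 15.9 and 17.0 CPM of Pcdhb and 2.23 and 1.83 CPM of Pcdha. The other wild-type arches had 259.8 to 311 CPM of Pcdhg, 17.1 to 19.1 CPM of Pcdhb and 1.46 to 3.03 CPM of Pcdha, so that 1 Pcdhg sum lay just above these ranges and both Pcdhb sums just below.

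Pcdh17 had the largest positive slope among the dispersed members, 0.18 log2 units per unit of score (0.05 to 0.31, limma-voom FDR 0.234 over all genes), and Pcdh20 had a slope of 0.15 (0.00 to 0.31, FDR 0.535). Pcdha12 had the largest slope, 0.57 (0.19 to 0.96, FDR 0.158), on no more than 11 reads in an arch. Pcdh7 went the other way, at -0.06 (-0.10 to -0.02), with a smaller FDR of 0.120. Its interval reached past 0 without wild-type arch 2, the highest of its group (-0.04, -0.09 to 0.01), and without wild-type arches 1 and 2 (-0.10, -0.21 to 0.01). Without both of these arches Pcdh17 was called with the score (0.69, 0.54 to 0.84, FDR 0.000211), where 2.27% of all genes were called. In that fit Pcdh10 had a nearly equal slope but was not called (0.67, 0.37 to 0.98, FDR 0.0178). Pcdh20 had 0.57 (FDR 0.0714), and Pcdh9 went the other way (-0.45, -0.71 to -0.19, FDR 0.0568). Within the other 8 arches the score spans a narrower range.

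The regulators of promoter choice and the binding partners were taken from lists of genes known for these roles. None of 15 regulators was called in limma-voom, though 5 were lower at an unadjusted p below 0.05, where 14.3% of all genes were. The smallest FDR was that of Dnmt1, the maintenance DNA methyltransferase, named after its values were seen. It had 787 ± 12.9 CPM in wild type against 723 ± 23.7 CPM in Grhl2-/-, without overlap (log2 fold change -0.12, FDR 0.0350). Ctcf, the insulator protein that joins cluster promoters to their enhancers, had 261 ± 9.21 CPM in wild type against 246 ± 7.54 CPM in Grhl2-/- (log2 fold change -0.08, FDR 0.149). Smchd1, a chromatin protein that holds the clusters silent, had 452 ± 11.0 and 425 ± 7.29 CPM, without overlap between the groups (log2 fold change -0.09, FDR 0.0856). Rest, the repressor of neuronal genes, had 315 ± 24.0 and 307 ± 14.7 CPM (log2 fold change -0.04, FDR 0.702). None of 21 partner and signalling genes, among them the WAVE complex subunits, was called, with 2 higher and 1 lower at an unadjusted p below 0.05, against 14.2% and 14.3% of all genes.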

How the data were processed

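PA1 of 5 wild-type and 5 Grhl2-/- embryos was sequenced by the authors from stranded total RNA depleted of ribosomal RNA, as single-end reads of 50 bp. The authors aligned the reads to GRCm38 with STAR, and the deposited values are raw counts per protein-coding gene from featureCounts, without normalization. Versions of both and the annotation release are not given in the sources used here. The submitters' processing notes name edgeR 3.18.1 and limma 3.32.7. A second table, which holds the authors' fold changes and FDRs, was not used. All 10 count columns were matched to samples by title, and replicates are separate embryos.

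The 14561 genes that reached 10 counts in some arch were normalised by TMM and tested with voom, lmFit and eBayes (limma 3.58.1, edgeR 4.0.16, R 4.3.3), as in the study's methods, with genotype as the only term. Genes were called at Benjamini-Hochberg FDR below 0.01. CPM values are TMM-normalised and given as mean ± SD. The neuron score used log2 CPM with a prior count of 0.5, was the coefficient tested in a fit with genotype, and its own 26 genes were left out, which left 14535. Confidence intervals are 95% intervals of limma. Lengths are exons of GENCODE mouse release M21 on GRCm38 not shared with other genes of the strand. The table gives 2 rows each the names Pcdha4, Pcdha11 and Pcdhga8, which were kept apart by identifier. Arches of a genotype differed by more than sampling noise (chi-square per gene 6.94 to 25.1 over 20 pairs). Values of a protocadherin on chromosome 18 are given without promoter sequence.

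As alternatives, DESeq2 1.42.0 and edgeR's quasi-likelihood test were run, with other normalizations, filters, weights, thresholds and scores, the label number as a replicate block, the neuron score as a covariate, and each arch left out in turn. Leaving out both arches of low neuron score was added after seeing the data. The members and lists were chosen with earlier results of these data known. Named were every dispersed and C-type member, every called member, and in each cluster the 3 most abundant and the 2 of smallest p. The fits were tested on simulated counts of the real genes.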

Additional observations from a re-analysis of the deposited data

Results flagged for a closer look

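In groups of 5 arches, 3 of 62 groups (26 named members, 4 family sums and the neuron score, in each genotype) held an arch whose gap to its nearest neighbour was an unusually large part of the group's range (Dixon's ratio, past its 95% critical value). Chance gives about 1 in 20 such groups, or 3.1 here. Wild-type arch 2 was the lowest in Pcdhga2, with a ratio of 0.726. Grhl2-/- arch 1 was the lowest in Pcdhgb6, with a ratio of 0.912. Wild-type arch 3 was the lowest in Pcdhgc4, with a ratio of 0.729.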

How the results depend on the processing

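Pcdh19 kept its direction under all alternatives, and the family sums moved by less than the spread between arches. The count of protocadherins called lower in limma-voom, 1 in the comparison as reported, was 0 with the neuron score as a covariate, 0 without both arches of low neuron score and 0 to 1 with each arch left out. The count called higher, 0 as reported, was 3 with DESeq2, 4 at FDR below 0.05, 0 to 1 with each arch left out, and 1 with library size alone, with quality weights, with the neuron score as a covariate and without both low arches, in these last cases Pcdh7. Without both low arches 1 protocadherin, Pcdh17, was called with the neuron score. With the label number as a replicate block, 0 were called lower (Pcdh19 log2 fold change -0.67, FDR 0.0144) and 0 higher, and 0 with the score. What the numbers mark is not given in the labels, so they were not taken to pair the samples. The paper used littermate controls where it could. Deviations from the genotype means correlated from -0.24 to 0.42 over 5 same-number pairs (mean 0.105, against -0.0253 over 20 other pairs), and 4 of 8 arches correlated best with their own number. These values cannot decide whether arches of 1 number are littermates. DESeq2 made 19 false calls in the simulated genotype comparison, where limma-voom made 3. Of 200 genes changed by 1 log2 unit there, DESeq2 recovered 88% and limma-voom 84.5%. Some uncalled differences changed sign: Pcdh17 0.00053 in edgeR, Pcdhgc5 0.0067 with library size alone, 0.018 with quality weights, 0.062 with the covariate and 0.074 without both low arches, Pcdh20 -0.0015 (0.25 as reported) with the covariate, and Pcdha12 -0.30 (0.79 as reported) with the covariate and -0.32 without both low arches. With each arch left out, ranges that crossed 0 were -0.31 to 0.042 for Pcdh10, -0.18 to 0.14 for Pcdh17, -0.025 to 0.066 for Pcdhgb6, -0.084 to 0.0044 for Pcdhga11, -0.017 to 0.13 for Pcdhgc4, -0.20 to 0.13 for Pcdhgc5 and -0.10 to 0.015 for Pcdh12. The cause of these changes was not tested. Depth limits the Pcdha members, of which 12 were not tested, and Pcdhb1, Pcdhb10, Pcdhb12 and Pcdhb13, which were not tested either.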

Other observations

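Pcdh10 split the arches by the number that their labels carry, a pattern seen after the values were known and not tested. The 3 arches numbered 566, wild-type arches 1 and 4 and Grhl2-/- arch 3, had 31.6 to 36.2 CPM, and the 7 arches with other numbers had 15.0 to 22.2 CPM. What the number marks is not given in the labels. Wild-type arch 4 and Grhl2-/- arch 3 also had the highest neuron score of their genotype (4.09 and 4.63), while wild-type arch 1 had a low one (-0.51). Among all genes tested, 2.92% were higher in all 3 of these arches than in the other 7, and among the protocadherins 2 of 54 were, Pcdh10 and Pcdhga11. For Pcdhga11 the arches numbered 566 had 15.0, 14.6 and 14.3 CPM, close above the others.

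The Pcdhg members also differed together between embryos of 1 genotype, again a pattern seen after the values were known and not tested. Wild-type arch 3 and Grhl2-/- arch 1, the arches numbered 588, had the lowest summed Pcdhg level of their genotype, 259.8 and 279.7 CPM. Each was the lowest of its genotype for 16 of the 21 Pcdhg members, and 13 of the 21 were lowest in both, where 10.2% of all genes tested were. The same held for 1 of 18 Pcdhb and 2 of 12 dispersed members. Pcdhgc3 was among these 13, at 126 and 131 CPM. The γ members share a locus and are not independent of each other.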
